A study of Mus musculus with 4 samples.

Results

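Of the 4295 circRNAs in the deposited table, 1524 overlap a host gene in the sense direction, carry a circBase identifier and come from a gene with 1 to 4 circRNAs in that table. circBase is a catalogue of circRNAs found in earlier experiments, so these are known circles from genes with few circles listed here. They belong to 1108 host genes: 788 hosts had 1 such circRNA, 236 had 2, 72 had 3 and 12 had 4. For comparison, the table holds 512 catalogued sense-overlapping circRNAs from 133 genes with 5 or more rows, and 1806 sense-overlapping circRNAs without a circBase identifier. The choice used class, catalogue entry and number of rows, with no threshold on level or change. Because a row needs at least 2 reads in some sample, the number of rows itself depends on detection in these libraries. Contrasts in reads and detection with genes of more rows are therefore partly tied to the choice. At its edge, the 215 circRNAs of hosts with 4 rows reached 5 reads in the median, summed over samples, and the 143 catalogued circRNAs of hosts with 5 rows reached 6.

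The samples are C3H10T1/2, a mouse cell line used as a model of mesenchymal stem cells. The untreated group holds replicates 1 and 2. The 5-AZA group holds replicates 101 and 102, exposed to 20 μM 5-azacytidine for 72 hours and then kept in fresh medium for 21 days, while no time in culture is listed for the untreated cells. Time in culture and 5-AZA therefore cannot be told apart. Whether the sequenced 5-AZA cells were picked colonies or the whole culture is not given in the sources used here, and nothing says whether the replicates were separate cultures, so p-values measure only the spread between these samples.

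A circRNA forms by back-splicing, in which the splice donor at the end of an exon is joined to the acceptor at the start of the same or an earlier exon, and the closed ring lacks the ends at which exonucleases attack linear RNA. Back-splicing competes with linear splicing of the same transcript, and flanking introns that pair with each other favour it. 5-azacytidine is a cytidine analogue that traps DNA methyltransferases and so lowers methylation at CG dinucleotides, and in C3H10T1/2 cells it is known for turning part of the culture into muscle, fat or cartilage cells.

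The reads behind each circRNA are those that cross its back-spliced junction, deposited as RPM, a value scaled to all reads of the library. Each value was a whole multiple of what 1 read is worth, 0.0108 RPM in untreated replicate 1 and 0.0106 RPM in 5-AZA replicate 102, which gave whole junction reads and totals of 92903364 to 93920706 reads per sample. The fewest reads listed in any sample were 2, so a value of 0 stands for fewer than 2 reads. Host genes were measured in the same libraries as FPKM summed over the transcripts of the gene, and exonic reads of a circle other than those over its junction could also count towards its host.

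Marker genes of other cell types differed between the groups. The summed level of 8 skeletal muscle markers was 1.44 and 1.01 FPKM in the untreated samples and 721 and 1117 FPKM in the 5-AZA samples, and all 8 were called higher in the fit over all genes. The 5 adipocyte markers went from 32.3 and 14.3 FPKM to 1097 and 1497 FPKM, with 5 of 5 called higher. Of 8 mesenchymal markers, the summed level was 4135 and 4173 FPKM before and 2723 and 2870 FPKM after, with 1 called higher and 0 lower. That one was Thy1, which stood at only 0.578 and 0.785 FPKM in untreated cells. The 4 chondrocyte markers summed to 92.3 and 80.2 FPKM before and 15.1 and 22.6 FPKM after, with 1 called higher and 2 lower, and the 4 osteoblast markers to 0.478 and 0.237 FPKM before and 5.26 and 5.40 FPKM after, with 2 called higher and Ibsp at 0 throughout. The 5 immune markers summed to 1.17 to 3.74 FPKM over the samples, with 1 called higher, and Cd3e and Adgre1 were listed at 0 in all of them. In bulk RNA, fewer cells of a type and less RNA per cell cannot be told apart, and the part of the cell mixture in the values that follow was not tested.

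The circRNAs were short in spliced form. Their median spliced length was 526 bases, with quartiles of 374 and 848 bases, against medians of 642 bases for catalogued circRNAs of genes with 5 or more rows and 682 bases for uncatalogued ones. Under 1000 bases lay 81.6% of them, against 69.5% and 67.5%. The genomic span from first to last base had a median of 9634 bases, shorter than the 15998 and 12153 bases of the other classes, and the spliced circle was a median of 6.43% of that span. Only 12 circRNAs, 0.787%, were listed with no intron removed, against 1.76% and 3.32%. The longest of these was circRNA_1391 from Ghr, the growth hormone receptor gene, listed at 93756 bases on the strength of 5 reads in 5-AZA replicate 101 alone. The shortest circle was circRNA_3795 of Mau2, a cohesin loader gene, with 84 bases and 2 reads in untreated replicate 2. These lengths are the authors' and were not checked against a genome.

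**Figure D1:**
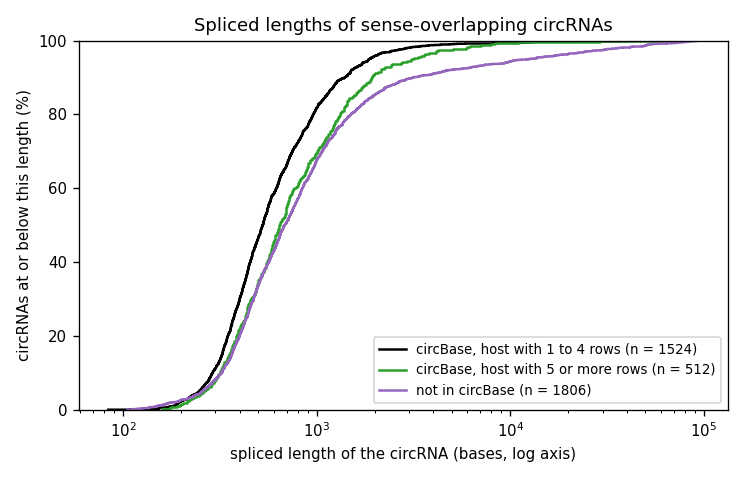
Share of sense-overlapping circRNAs (vertical axis, %) at or below each spliced length (horizontal axis, bases, log axis) for catalogued circRNAs of hosts with 1 to 4 rows, catalogued circRNAs of hosts with 5 or more rows, and circRNAs not in circBase. The first curve lies to the left of the others through most of its range, with a median of 526 bases against 642 and 682.

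Circles of one host often shared a splice site. Among the 1021 circRNAs whose host had 2 to 4 rows, 376 shared their start and 370 shared their end with another row of the gene, and 683 (66.9%) shared at least 1 of them. Few junctions lay at the ends of the transcript: 18 of the 1524 (1.18%) began at the first base of the listed transcript and 1 ended at its last. The midpoint lay a median of 47.9% along the transcript. Chromosome 2 carried 135 of them, the most of any chromosome, and chromosome 19 carried 33, the fewest.

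Most of these circRNAs were rare. The whole set had 18361 junction reads over the 4 samples, 281 members had just 2 reads in all, and the median was 5 reads, against 8 for catalogued circles of genes with more rows and 3 for uncatalogued ones. Reads were concentrated: 158 circRNAs held as many of them as all the others together, and the 220 (14.4%) with at least 20 reads held 57.6%. A total of 194 (12.7%) were listed in all 4 samples and 807 (53.0%) in 1 sample only. Among uncatalogued circRNAs 88.4% were in 1 sample only, and among catalogued circles of genes with more rows 42.0%.

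Whether a circRNA reappeared in the other replicate of its group followed its read number. Of those seen with 2 reads in one replicate, 24.5% to 26.1% were listed in the other, depending on the replicate taken first. With 5 to 9 reads it was 57.1% to 61.8%, and with 20 or more reads it was 97.0% to 100%. The 4 libraries gave nearly the same curve, so at these depths a circRNA with a few reads in 1 group and 0 in the other cannot be read as absent from the second.

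**Figure D2:**
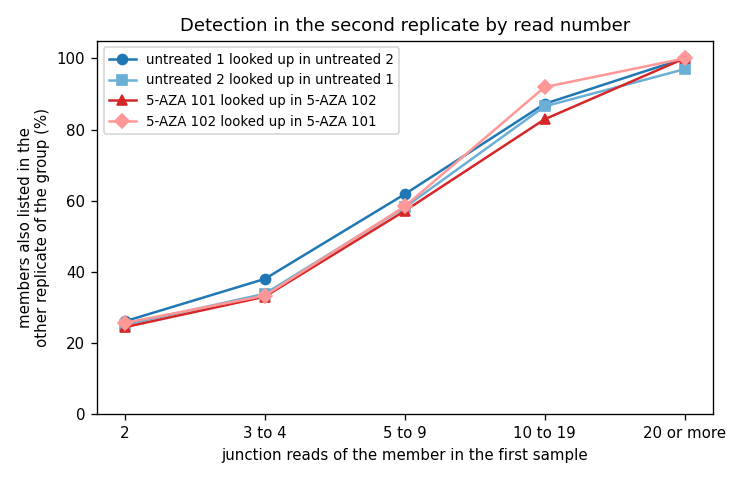
Share of circRNAs also listed in the other replicate of the same group (vertical axis, %) by the junction reads in the replicate taken first (horizontal axis, classes of reads), 1 line for each sample taken first. All 4 lines climb from 24.5% to 26.1% at 2 reads to at least 97.0% at 20 or more reads.

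One circRNA with many reads broke that pattern. circRNA_1668 of Lrch3, a leucine-rich repeat gene linked to the cytoskeleton, had 0 reads in untreated replicate 1, 85 in untreated replicate 2, 104 in 5-AZA replicate 101 and 53 in 5-AZA replicate 102. Its host was at 14.3, 14.6, 11.8 and 13.99 FPKM in the same order, and the cause of the gap was not tested. Another circle of the gene from a separate pair of splice sites, circRNA_1671, had 8, 2, 0 and 0 reads. The uncatalogued circRNA_1669 and circRNA_1670, which share the start of circRNA_1668, had 0, 3, 0 and 0 reads and 2, 0, 0 and 0 reads. A further 6 members, picked after their values were seen, were likewise listed at 0 in 1 sample with at least 9 reads in each of the others, among them Cpsf6 (0, 10, 14 and 14 reads) and Casc5, a kinetochore gene (14, 22, 12 and 0 reads). The gaps fell in all 4 libraries.

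Summed over all members, fewer junction reads were found after 5-AZA. The sums were 4963 and 5255 reads in the untreated samples and 4207 and 3936 in the 5-AZA samples, which is 53.4 and 56.2 RPM against 45.3 and 41.9 RPM. The means were 54.8 ± 2.03 RPM (SD, n = 2) and 43.6 ± 2.39 RPM (SD, n = 2), a change of -20.5%, and the groups did not overlap. An exact two-sided permutation test gave p = 0.333, the smallest that 2 samples against 2 allow. Junction reads of all circRNAs numbered 13282 and 13388 before and 10905 and 10448 after 5-AZA, and members held 37.4% and 39.3% of all junction reads in the untreated samples and 38.6% and 37.7% in the 5-AZA samples, where the groups overlapped (exact permutation p = 1). The number of members listed was 722 and 785 in untreated cells and 665 and 649 after 5-AZA.

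None of the 10 circles with the most reads passed adjustment. circRNA_2805 of Nfkb1, which encodes a subunit of the transcription factor NF-κB, led with 103, 91, 76 and 75 reads in untreated replicates 1 and 2 and 5-AZA replicates 101 and 102. It lies at chr3:135655500-135669339 on the minus strand and is 326 bases long when spliced. Both 5-AZA values lay below both untreated ones, and the log2 change on the log2(RPM + 0.0213) scale was -0.35 (SE 0.11, limma adjusted p = 0.252). As a share of all junction reads in place of all reads, its log2 change was -0.037. The host stood at 15.2 ± 1.75 FPKM and 14.5 ± 0.248 FPKM (SD, n = 2 each).

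circRNA_3144 of Whsc1, the gene for a histone H3 lysine methyltransferase also called Nsd2, had 80, 94, 50 and 48 reads, in the same sample order as used from here on. Its log2 change was -0.80 (SE 0.13, limma adjusted p = 0.119), while the host had a log2 change of -0.44 on the log2(FPKM + 0.1) scale (adjusted p = 0.0965). circRNA_1453 of Oxr1, a gene of protection against oxidative stress, had 66, 79, 46 and 47 reads, a log2 change of -0.62 (SE 0.14, adjusted p = 0.152), with its host at 44.2 ± 0.155 and 44.1 ± 2.90 FPKM (SD, n = 2 each). As a share of junction reads, the changes were -0.49 for Whsc1 and -0.30 for Oxr1. In both circles the reads of the 5-AZA samples lay below the untreated samples, whereas the Oxr1 host values overlapped between the groups.

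Other abundant circles overlapped or scattered. Mettl9, a histidine methyltransferase gene, gave 62, 79, 64 and 49 reads and Ankib1, a ubiquitin ligase gene, gave 45, 58, 47 and 51. Usp3, a deubiquitinase gene, gave 38, 43, 60 and 43 reads, the highest of them in a 5-AZA sample. Vapa, whose protein tethers other organelles to the endoplasmic reticulum, gave 64, 72, 39 and 53 reads and Tcf20, a transcriptional coregulator gene, gave 69, 36, 28 and 22. In these last circles the 5-AZA samples lay below the untreated ones, at limma adjusted p = 0.319 for Vapa and 0.395 for Tcf20. The log2 changes were -0.56 and -0.96, and -0.25 and -0.65 as a share of junction reads.

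The circRNA_0857 of Arhgap5, a circle of 4037 bases, had 57, 53, 45 and 18 reads, with the 5-AZA samples far apart and a log2 change of -0.90 (SE 0.51, limma adjusted p = 0.561). The host stood at 119 and 127 FPKM in untreated cells and 65.1 and 65.6 FPKM after 5-AZA, a log2 change of -0.91 (adjusted p = 1.54e-04), short of the 2-fold limit. circRNA_0856 of the same gene, which is listed as exonic and so is not among the members, had 201, 225, 58 and 85 reads.

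**Figure D3:**
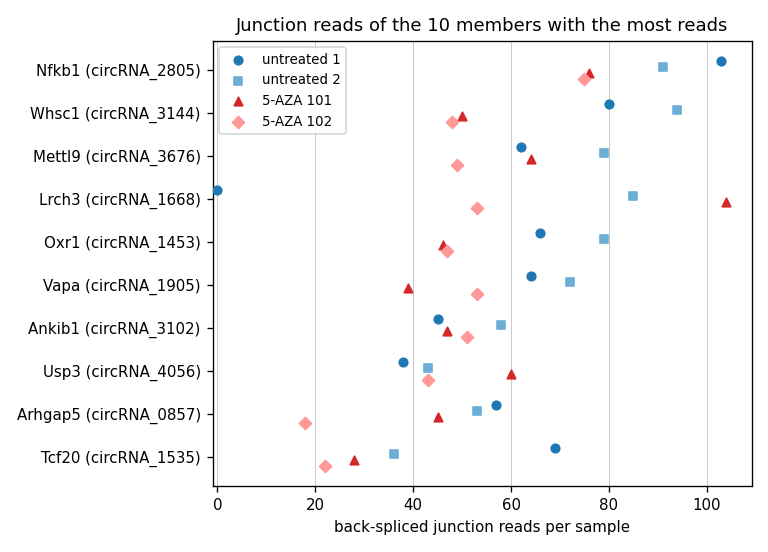
Back-spliced junction reads (horizontal axis) of the 10 members with the most reads, 1 row for each circRNA and 1 point for each of the 4 samples (circles and squares untreated, triangles and diamonds 5-AZA). Untreated points lie to the right for Nfkb1, Whsc1, Oxr1, Vapa, Arhgap5 and Tcf20, and Lrch3 has 1 untreated sample at 0.

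Across the table, 1360 circRNAs seen in at least 2 samples were tested with limma, 717 of them members, and the 807 members of a single sample were left out. With Benjamini-Hochberg adjustment over all 1360, 0 circRNAs passed (percent called 0), and 55 members shared the smallest adjusted p, 0.119. At an unadjusted p below 0.05, 35 of the 717 members (4.88%) were higher after 5-AZA against 6.69% of all circRNAs tested, and 78 (10.9%) were lower against 11.8%. These shares are near the background. Without 5-AZA replicate 102, 50 members were lower at that unadjusted p. Members whose groups did not overlap numbered 89 higher (background 14%) and 187 lower (background 24.9%). With voom weights on the recovered reads, an alternative added after seeing the data, 0 circRNAs passed adjustment, with 40 members above and 61 below the untreated level at an unadjusted p below 0.05.

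These unadjusted calls mostly rest on circles listed at 0 in one group. Of the 35 higher members 34 were at 0 in both untreated samples, and of the 78 lower ones 63 were at 0 in both 5-AZA samples. Among the 194 members listed in all 4 samples, the median log2 change was -0.22, the same as over all 381 circRNAs listed in all 4 samples (-0.22), and 123 of the 194 had a negative value. When the fit was limited to those 381 circRNAs, 10 passed adjustment, 3 of them members, namely circles of Dcbld2, Ptn and Wapl, all lower.

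Ptn encodes pleiotrophin, a heparin-binding growth factor, and was itself among the stronger genes of these cells, at 3018, 3375, 2204 and 2618 FPKM. Its circRNA_3379, at chr6:36741278-36744505 on the minus strand and 453 bases long, had 28, 31, 7 and 4 reads. The groups were far apart, with a log2 change of -2.10 (SE 0.30, limma adjusted p = 0.119 in the fit over 1360 circRNAs, 0.0266 in the fit over 381). The host had a log2 change of -0.41 (adjusted p = 0.0663), and the log2 change of the ratio of circle to host was -1.69 (SE 0.50, adjusted p = 0.476).

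Dcbld2, a gene for a neuropilin-like membrane receptor, gave circRNA_1705 at chr16:58424561-58433463 on the plus strand, with 38, 25, 7 and 5 reads. Its log2 change was -2.05 (SE 0.32, limma adjusted p = 0.119 over 1360 and 0.0266 over 381), against -0.32 for the host (adjusted p = 0.0746). Wapl, the gene of the factor that releases cohesin from chromatin, gave circRNA_1252 with 45, 51, 21 and 20 reads, a log2 change of -1.15 (SE 0.14, adjusted p = 0.119 and 0.0439). The host of circRNA_1252 had a log2 change of -0.17 (adjusted p = 0.253). In all 3 circles every 5-AZA sample held fewer reads than every untreated one.

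In the fit over 1360 circRNAs, the other members listed in all 4 samples that reached an unadjusted p below 0.05 were lower with 1 exception. They came from Fryl (14, 13, 3 and 2 reads), the homeobox gene Zfhx3 (8, 15, 3 and 2), the polymerase-associated factor gene Cdc73 (23, 25, 11 and 5), Zzz3 (14, 15, 7 and 4), Ppme1 (8, 12, 4 and 3) and the splicing regulator gene Hnrnpll (41, 43, 25 and 20), besides Nfkb1, Whsc1 and Oxr1. The exception was Rreb1, a zinc finger gene of Ras signalling, whose circRNA_1047 had 4, 5, 12 and 14 reads, a log2 change of 1.21 (SE 0.26, limma adjusted p = 0.14). The Rreb1 host had a log2 change of -0.10 (adjusted p = 0.751).

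Circles found only after 5-AZA had few reads. circRNA_2078 of March3, a membrane ubiquitin ligase gene, had 0, 0, 8 and 14 reads, and its host stood at 4.25, 4.74, 7.75 and 6.93 FPKM. circRNA_1179 of Pde4d, a cAMP phosphodiesterase gene, had 0, 0, 9 and 7 reads. Circles of Strbp (0, 0, 8 and 6), Zswim6 (0, 0, 9 and 5), the autophagy gene Uvrag (0, 0, 7 and 5), the kinase gene Mark4 (0, 0, 3 and 9), Rnf114 (0, 0, 4 and 7) and the septin gene Sept2 (0, 0, 3 and 8) followed, with limma adjusted p from 0.119 to 0.228. Of these 8 hosts only Pde4d was called, and the Sept2 host stood at 231 ± 2.66 and 227 ± 4.36 FPKM (SD, n = 2 each). All 8 circles were at 0 in both untreated samples and were tested only through their 5-AZA reads, so their p-values are no support for a change. The size of such a change also hangs on the pseudocount: March3 was 2.67, but 3.55 with 0.5 times and 1.23 with 4 times the pseudocount.

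Among circles found in untreated cells and hardly after 5-AZA, circRNA_0900 of Kcnh5, a voltage-gated potassium channel gene, had 19, 12, 0 and 0 reads. Pak3, the gene of a kinase activated by Cdc42 and Rac, gave circRNA_4265 with 5, 10, 0 and 0 reads. The scaffold gene Mpp6 gave 7, 8, 0 and 0 reads, the rhomboid protease gene Rhbdd1 gave 10, 5, 0 and 0, Mfsd14a gave 9, 5, 0 and 0, and Mipol1 gave 5, 9, 0 and 0. Trim33, a ubiquitin ligase gene of TGF-β signalling, gave 12, 15, 0 and 4. Limma adjusted p ran from 0.119 to 0.262 over these 7, and of their hosts Kcnh5 and Pak3 were called. Except for Trim33, these circles were at 0 in both 5-AZA samples and were tested only through their untreated reads, so their p-values are likewise no support.

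Most host genes of these circRNAs were expressed, and few were called at over 2-fold. Their median level was 11.004 FPKM, and 1080 of 1108 (97.5%) had a mean of at least 1 FPKM, against 49.4% of all genes. Of 1102 hosts tested among 13199 genes, 24 (2.18%) were called higher at an adjusted p below 0.05 and over 2-fold, against a background of 13.1%, and 8 (0.726%) were called lower, against 1.32%. With no limit on the fold, hosts were higher at an unadjusted p below 0.05 in 126 cases (11.4%, against 24.4% of all genes). They were lower in 179 (16.2%, against 11.1%). Their median log2 change was -0.06, against 0.05 over all genes. The tested genes had a lower median level than the hosts, 6.60 FPKM, and reached down to 0.1 FPKM. No background matched for level was drawn, so whether these shares are particular to hosts was not tested. The shares of all genes belong to this fit and were not recomputed for the settings that follow. The balance of these calls moved with scaling and with the samples used: 20 higher and 17 lower with each sample centred on its median, 19 and 27 after quantile normalization, 12 and 2 without 5-AZA replicate 101, and 8 and 5 without 5-AZA replicate 102.

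In the few hosts that were called, the circles lay mostly on the same side as the host. The 24 hosts called higher had 30 members, with 18 and 32 summed reads in the untreated samples and 86 and 156 after 5-AZA. Of the 30, 24 (80%) were listed only in 5-AZA samples and 1 only in untreated samples. The 8 hosts called lower had 13 members, with 37 and 68 reads in untreated cells and 4 and 9 after 5-AZA, and 9 of the 13 (69.2%) were listed only in untreated samples. Among the 1481 members of other hosts, 25.1% were listed only after 5-AZA and 34.2% only in untreated cells. Of the 30 members, 20 were seen in 1 sample only, and without 5-AZA replicate 102, the library that held most of these reads, 16 of them were listed, 10 only after 5-AZA. Without untreated replicate 2, which held most of the untreated reads of the 13, 9 of these were listed, 5 only in untreated cells.

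Kcnh5 had the largest fall of a host. The gene went from 2.17 and 1.68 FPKM to 0.196 and 0.197 FPKM, a log2 change of -2.76 (SE 0.28, limma adjusted p = 1.55e-04). Its circRNA_0900, at chr12:75114191-75154281 on the minus strand, had no reads listed after 5-AZA, and circRNA_0899, which shares the listed end at 75154281, had 0, 12, 0 and 0 reads. Pak3 had a log2 change of -1.19 (adjusted p = 3.44e-04), and besides circRNA_4265 its circRNA_4266, which starts at the same base 143709648, had 4, 2, 0 and 0 reads. Sox6, a gene for a transcription factor of cartilage and muscle, had a log2 change of -1.43 (adjusted p = 7.91e-04), and its circRNA_3654 had 5, 5, 0 and 0 reads.

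Pde4d rose from 3.90 and 3.81 FPKM to 8.31 and 8.32 FPKM, a log2 change of 1.09 (SE 0.15, limma adjusted p = 7.34e-04), and both its circles, circRNA_1179 and circRNA_1178 (0, 0, 4 and 5 reads), were listed after 5-AZA only. Vav3 rose by a log2 change of 1.34 (adjusted p = 7.90e-04) and had 4 members, 3 of them listed only after 5-AZA and circRNA_2761 with 0, 4, 0 and 12 reads. Gbe1, the glycogen branching enzyme gene, rose by a log2 change of 1.88 (adjusted p = 9.75e-05), and its circRNA_1712 had 0, 0, 17 and 3 reads. The circle was thus seen in both 5-AZA samples, although their reads were unequal.

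Circles of other hosts that rose ranged from few reads to many. Trpc6, a cation channel gene, had a log2 change of 5.30 (adjusted p = 3.58e-05), but its circRNA_3948 had 0, 0, 0 and 10 reads. Npr3, the clearance receptor gene for natriuretic peptides, went from 7.47 ± 0.566 to 39.3 ± 3.31 FPKM (SD, n = 2 each) and its circRNA_1407 had 0, 2, 5 and 3 reads. Svep1, an extracellular matrix gene, rose from 13.1 ± 1.09 to 32.2 ± 4.18 FPKM, and its circRNA_2913, the circle with the most reads among called hosts, had 12, 17, 19 and 45 reads, a log2 change of 0.94 (SE 0.51, limma adjusted p = 0.533). In the opposite sense, Ttyh2, a chloride channel family gene, rose by a log2 change of 1.24, while its circRNA_0761 had 0, 7, 0 and 0 reads.

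**Figure D4:**
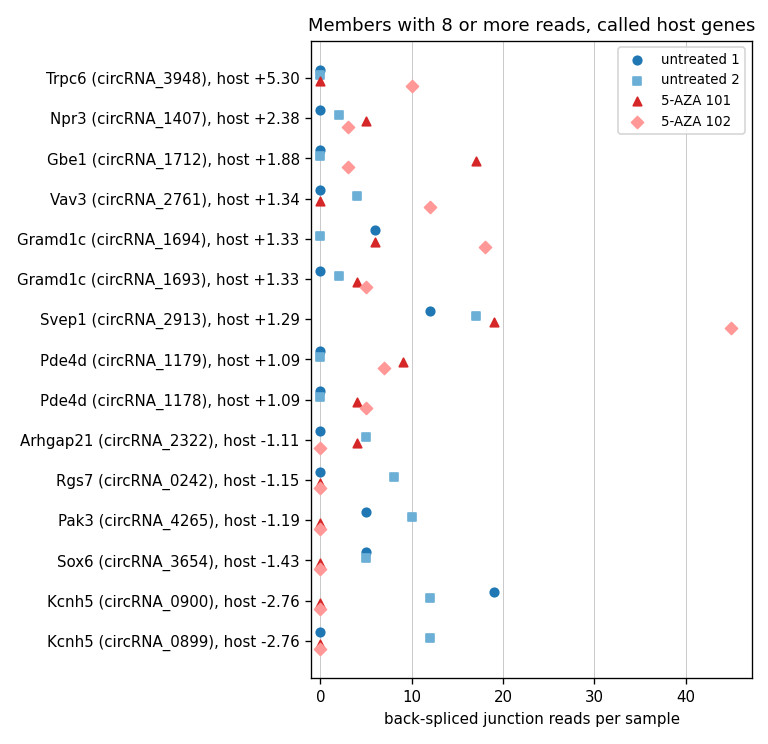
Back-spliced junction reads per sample (horizontal axis) of members with at least 8 reads in all whose host gene was called, ordered by the host's log2 change on the log2(FPKM + 0.1) scale, which is printed beside each name. Untreated points lie at or near 0 for hosts called higher except Svep1 and circRNA_1694 of Gramd1c, and 5-AZA points lie at 0 for hosts called lower except circRNA_2322 of Arhgap21.

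RefSeq lists start sites for Kcnh5, Pak3 and Pde4d, the called hosts whose circles were among the largest changes, and the window from 250 bases before to 50 bases after a start is shown for each because 5-AZA acts on methylation of CG dinucleotides. Each is given 5′ to 3′ on the strand of the gene in GRCm38.p6 with every CG in capitals, for Kcnh5 at chr12:75177283-75177582 (minus), for the most upstream of the 3 windows of Pak3 at chrX:143518341-143518640 (plus) and for Pde4d at chr13:108653927-108654226 (plus).
Kcnh5: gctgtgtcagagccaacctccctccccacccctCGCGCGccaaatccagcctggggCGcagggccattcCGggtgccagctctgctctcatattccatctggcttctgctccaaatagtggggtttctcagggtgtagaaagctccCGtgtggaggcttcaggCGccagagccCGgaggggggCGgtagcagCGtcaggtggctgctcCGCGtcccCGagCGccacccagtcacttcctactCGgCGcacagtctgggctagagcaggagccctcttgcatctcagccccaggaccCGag
Pak3: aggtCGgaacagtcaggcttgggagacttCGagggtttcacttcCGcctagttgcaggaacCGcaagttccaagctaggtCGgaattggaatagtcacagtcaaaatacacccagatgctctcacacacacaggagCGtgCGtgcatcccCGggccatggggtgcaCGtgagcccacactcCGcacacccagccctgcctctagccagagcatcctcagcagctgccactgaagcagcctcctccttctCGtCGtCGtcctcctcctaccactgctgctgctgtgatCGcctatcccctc
Pde4d: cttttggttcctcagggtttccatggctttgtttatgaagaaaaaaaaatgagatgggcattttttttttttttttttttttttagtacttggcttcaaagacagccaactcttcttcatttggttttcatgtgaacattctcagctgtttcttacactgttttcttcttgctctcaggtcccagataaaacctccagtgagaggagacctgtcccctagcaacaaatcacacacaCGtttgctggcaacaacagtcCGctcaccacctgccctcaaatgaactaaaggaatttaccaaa
The Kcnh5 window holds 17 CG dinucleotides, the Pak3 window 14 and the Pde4d window 2, numbers reached or passed by 31.4%, 36.3% and 85.9% of all 32851 RefSeq windows. Over the 1188 windows of 875 hosts that matched by symbol, the median was 25 CG, against 7 over all windows and 21 over the windows of genes with a mean of at least 1 FPKM. Genes called higher after 5-AZA had a median of 8 over their windows and genes called lower a median of 9. Among other called hosts named above, the window taken for Vav3, of 3 listed, holds 33 CG. That for Sox6, of 6 listed, holds 11. These numbers were reached or passed by 8.56% and 41.4% of all windows, and the other windows of these genes are not given here. These counts describe the letters of the windows, no methylation was measured, and which start site was used in these cells was not tested.

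Across members the level of a circle said little about the level of its host. The Spearman coefficient between mean RPM of the circle and mean FPKM of the host was 0.11 over 1518 circRNAs, which share libraries and, for some, hosts. Changes went together more closely, with a Spearman coefficient of 0.29 over 716 circRNAs and 0.26 over the 194 listed in all 4 samples, as descriptions across circRNAs that are no independent replicates. Of those 194, 76 had a lower circle and a lower host and 35 a higher circle and a higher host, while 47 had a lower circle with a higher host and 36 the reverse. Circle changes spread far wider than host changes, with SDs of 0.64 and 0.29 on their log2 scales.

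**Figure D5:**
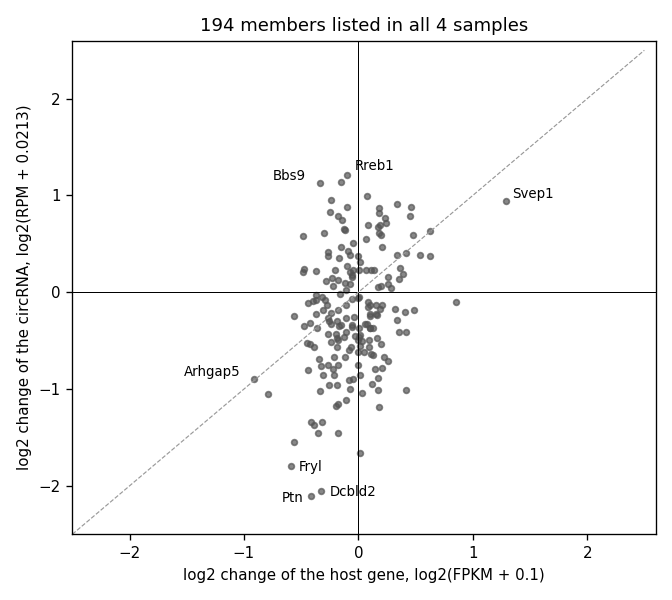
Log2 change of the circRNA on the log2(RPM + 0.0213) scale (vertical axis) against that of its host gene on the log2(FPKM + 0.1) scale (horizontal axis) for the 194 members listed in all 4 samples, 1 point for each circRNA, with equality as a dashed line. Points spread more vertically (SD 0.64) than horizontally (SD 0.29), and Svep1 stands alone at the right.

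Set against the host, 0 of 716 members had a ratio of circle to host that passed adjustment (limma, background 0). At an unadjusted p below 0.05, 24 ratios (3.35%) were higher, against a background of 3.97%, and 40 (5.59%) were lower, against 5.99%. Scaled to all junction reads instead of all reads, the numbers were 29 and 30. They were 9 and 16 without untreated replicate 1, 18 and 15 without untreated replicate 2, 5 and 26 without 5-AZA replicate 101 and 10 and 11 without 5-AZA replicate 102. The most negative differences among members listed in all 4 samples were those of Ptn, Dcbld2, Cwf19l2 (30, 15, 9 and 3 reads, host log2 change 0.01) and Akap7, an anchoring gene for protein kinase A (9, 21, 5 and 7 reads, host 0.41). The most positive were those of Bbs9, a gene of the ciliary BBSome (10, 5, 18 and 18 reads, host -0.34), Rreb1, Msrb3, a methionine sulfoxide reductase gene (4, 2, 11 and 7 reads, host -0.15), and Ccser2 (2, 4, 8 and 7 reads, host -0.24). All 8 had an adjusted p of at least 0.476 for the ratio.

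Some circles were strong for the level of their gene. Spen, a transcriptional repressor gene, had a mean of 0.797 FPKM but gave circRNA_3075 with 10, 21, 23 and 11 reads, and Spred2, an inhibitor of Ras signalling, had 1.74 FPKM with 31, 35, 26 and 45 reads for circRNA_0526. Both were listed in all 4 samples. At the other end, 6 members had hosts below 0.1 FPKM, such as Cntn5, a contactin gene, at 0.0299 FPKM with 0, 0, 0 and 4 reads.

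Of 30 genes that are widely reported to form circles, 14 had 24 members with a median of 7 reads in all, and 8 had 5 or more rows and so lie outside the choice. Of the 24, 18 were tested, with 1 higher (5.56%, against 6.69% of all circRNAs tested) and 4 lower (22.2%, against 11.8%) at an unadjusted p below 0.05, with a median log2 change of -0.16 against -0.16 over all circRNAs tested, and 0 passed adjustment (limma). The lower ones were circles of Rhobtb3 (3, 4, 0 and 0 reads), the zinc finger gene Zbtb20 (5, 3, 0 and 0), the chromatin gene Asxl1 (3, 2, 0 and 0) and Zfp609 (2, 3, 0 and 0), whose circular RNA is known from myoblasts. The higher one was circRNA_2122 of Dym (0, 0, 3 and 3). All 5 were at 0 in one group and were tested only through their reads in the other, while the strongest circle of that gene, circRNA_2124, had 12, 0, 9 and 14. Rhobtb3 itself was lower after 5-AZA, with a log2 change of -0.89 (adjusted p = 3.50e-04), and the Zbtb20 host stood at a log2 change of 0.40 (adjusted p = 0.0308).

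Chromatin and DNA methylation genes gave 20 members from 16 genes, with 10 tested, 0 higher (against 6.69% of all) and 1 lower (Asxl1, 10% of those tested against 11.8%) at an unadjusted p below 0.05 and 0 after adjustment, at a median log2 change of 0.22. Whsc1 stands outside this count because the list holds the symbol Nsd2. The strongest was circRNA_2454 of Phf21a, a reader of unmethylated histone H3 in the LSD1 complex, with 23, 20, 29 and 45 reads, at chr2:92214049-92230724 on the plus strand. Its 5-AZA samples lay above the untreated samples, with a log2 change of 0.70 (SE 0.28, limma adjusted p = 0.375), and its host was at 4.38 ± 0.653 and 4.63 ± 0.0229 FPKM (SD, n = 2 each). The paper picked this circle as upregulated for qRT-PCR and places it among those whose result was not significant or differed from its sequencing. Tet1, a gene for an enzyme that oxidises methylcytosine, had a log2 change of -1.04 (adjusted p = 0.00523), and its circRNA_0408 had 0, 0, 0 and 3 reads.

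Ubiquitin ligase and deubiquitinase genes gave 32 members from 21 genes, with 19 tested, 0 higher and 2 lower (Trim33 and Cul1) at an unadjusted p below 0.05. The lower ones are 10.5% of those tested, against 11.8% of all circRNAs tested, of which 6.69% were higher. The Cul1 circle, circRNA_3406, had 5, 2, 0 and 0 reads. It was tested only through its untreated reads, so its p-value is no support for a change. Usp3 led that list, followed by Ube2k, with 29, 37, 25 and 29 reads, and Rnf169, with 39, 37, 13 and 27. In that list 0 members passed adjustment (limma), and the median log2 change was -0.17.

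Matrix and adhesion genes gave 7 members from 4 genes, with 4 tested, 1 higher (the fibrillin gene Fbn2, 0, 0, 3 and 6 reads) and 1 lower (the cadherin gene Cdh2, 3, 4, 0 and 0) at an unadjusted p below 0.05, and 0 passed adjustment at a median log2 change of -0.62. Each of these circles was at 0 in one group, and over all circRNAs tested 6.69% were higher and 11.8% lower at that unadjusted p. Crim1 held the most reads of that list, with 3, 5, 2 and 2.

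Of 41 sarcomere and muscle genes tested, 28 were called higher, against 13.1% of all genes tested. Of the 43 genes of that list, 4 (9.30%, against 5.06% of all genes) had a member each. Among the 10800 genes with a mean of at least 1 FPKM, 1080 had a member. The list had no such limit on level, so these shares are not alike, and whether the list differs from expressed genes was not tested. Counting circRNAs of every type, 15 genes of the list had a row. None of the 4 hosts in the list was called. The strongest was circRNA_3580 of Mef2a, a muscle transcription factor gene, with 5, 3, 0 and 7 reads, while the host had a log2 change of 0.65 (adjusted p = 0.00227). The circles of Dst (0, 0, 0 and 6 reads), Mef2d (0, 0, 7 and 0) and the calcium pump gene Atp2a2 (4, 0, 0 and 0) were each seen in 1 sample. Of 28 interferon response genes tested, 27 were called higher, against 13.1% of all genes tested. No members came from that list of 30 genes, which is near the 5.06% of all genes with a member. circRNAs outside the members were listed for 5 genes of that list.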

How the data were processed

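RNA of 2 untreated and 2 5-AZA samples was depleted of ribosomal RNA and sequenced from stranded libraries. Per the submitters' processing notes, Trimmomatic, HISAT2, Bowtie2 2.2.9 and eXpress 1.5.1 were used, and the paper names DESeq for the authors' own comparison. The circRNA predictor is not given in the sources used here. The authors deposited RPM values of junction reads for each circRNA and FPKM values for each mRNA transcript. The notes list mm9, yet of the 1521 members matched by gene ID 1516 (99.7%) lie inside the bounds of their host in GRCm38.p6, so coordinates are printed as listed.

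RPM was divided by the value of 1 read, 0.5 times the smallest value above 0 in each column, which gave whole reads, within 1e-06 of a whole number, for 100% of values, and totals of 92903364 to 93920706 reads per sample. The number of samples and these few reads limit the precision. Log2(RPM + 0.0213), log2(FPKM + 0.1) of genes with a mean of at least 0.1 FPKM, and the difference of both were fitted over the whole tables by lmFit and a trended eBayes of limma 3.58.1 (R 4.3.3), with Benjamini-Hochberg adjustment. circRNAs had to be listed in at least 2 samples. Host genes were called at an adjusted p below 0.05 and over 2-fold. Counts at an unadjusted p are labelled so. Tables were handled with pandas 2.3.3 in Python 3.11.15. The fits were run on simulated data with large changes. For circRNAs that check asked for the right sign and an excess of low unadjusted p-values. It asked nothing of adjusted calls, so the power behind the absence of such calls was not tested.

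Named circRNAs are the 10 with the most reads, that named by the paper (Phf21a), the 8 higher and 8 lower with the largest change at an unadjusted p below 0.05 and no overlap between groups, the 4 most positive and 4 most negative differences from the host among those listed in all 4 samples, and the strongest of each gene list. Others were named after their values were seen. The members and lists were chosen with earlier results of these data known. Other pseudocounts, limits, scalings and the omission of each sample were tried. lncRNA values and the GO and KEGG columns were not used. 1 gene list is not reported here.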

Additional observations from a re-analysis of the deposited data

How the results depend on the processing

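Across 94 recomputed summary values, 69 stayed within 1.5 times the reported count or within the spread of the sum, and the cause of the others was not tested unless named. Over circRNAs listed in at least 1 sample, 3 circRNAs passed adjustment, 0 of them members, and 14 members were higher at an unadjusted p below 0.05. Over those in all 4 samples, where fewer were tested, 10 circRNAs and 3 members passed, and 7 members were higher and 20 lower. For the ratio to the host, that limit gave 6 higher and 13 lower, and a pseudocount 4 times larger gave 1 adjusted call (Npr3). Hosts called lower numbered 5 with a pseudocount of 1 FPKM, 17 with centring on the median and 27 with quantile normalization, settings that moved the median of all genes from 0.05 to -0.06 and -0.12. The log2 ratio of summed member RPM, -0.33, was -0.01 (-0.00693) as a share of junction reads.

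Leaving out each sample in turn gave 30 to 40 members higher and 50 to 82 lower, the 50 without 5-AZA replicate 102, 5 to 18 ratios higher and 11 to 26 lower, 8 to 27 hosts called higher and 2 to 12 lower. The summed ratio ran from -0.39 to -0.28. A sample left alone in its group was assumed to vary like the other group.

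Of 389 recomputed log2 changes of named circRNAs, 6 changed sign. Without 1 sample in turn, circRNA_1668 of Lrch3 ran from -0.19 (without untreated replicate 1) to 5.26, circRNA_2124 of Dym from -0.084 (without untreated replicate 2) to 2.74, circRNA_3580 of Mef2a from -1.57 to 0.60 (without 5-AZA replicate 101) and circRNA_3102 of Ankib1 from -0.24 to 0.11 (without untreated replicate 2). Ankib1 was 0.25 as a share of junction reads and 0.22 with voom. Another 42 passed from below to above an unadjusted p of 0.05 and 29 the other way. No paired analysis was possible because the groups share no replicate number. edgeR and DESeq2 on the recovered reads, although planned, were not run, and voom was run on them in their place.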
